A study of Saccharomyces cerevisiae with 13 samples.

Results

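The data presented here are the read counts of 8 genes of the actin cytoskeleton, *ACT1*, *PFY1*, *COF1*, *TPM1*, *TPM2*, *ABP1*, *SAC6* and *CRN1*, in 13 QuantSeq libraries of the budding yeast *S. cerevisiae*. The genes were chosen by name, as the rows with these 8 symbols out of 7126 rows in all, with earlier results of these data known. QuantSeq reads the 3′ end of polyadenylated RNA, so the count of a gene reflects its number of transcripts and not its length. *ACT1* was also the loading control of the RT-PCR experiments in the study.

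All libraries came from the laboratory strain BY4741, a MATa haploid with deletions in *HIS3*, *LEU2*, *LYS2* and *URA3* that serves as WT. In the first experiment, untreated WT was compared with caffeine-treated WT (50 mM for 1 h), with 2 libraries in each group and no plasmid in the cells. For caffeine replicate 2 the dose is labelled as 51 mM. In the second experiment, all 9 libraries came from cells with the multicopy *URA3* plasmid pRS426ADH and without caffeine, in 3 groups of 3 libraries. WT with empty vector was the control, the *yap1* mutant carried the same vector, and in Yap1 overexpression the plasmid carried *YAP1* behind the *ADH1* promoter in WT cells. Yap1 is the transcription factor of the oxidative stress response. The sources do not say whether the libraries of a group came from separate cultures, so p-values measure the spread between these libraries, which may be technical. The experiments also differed in medium. Neither the plasmid nor the medium can be told apart from the experiment, and the groups were tested within each experiment.

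Total counts per library ranged from 15508616 to 25609092. The 15 rows of rRNA genes took 43.8% to 75.0% of the counts with plasmid and 14.7% to 27.4% without, which left at least 6409605 counts for the other genes. The strain labels were checked against marker genes. *URA3* had 0 counts in the 4 libraries without plasmid and 44722 to 146805 counts in the 9 with plasmid. *STE2*, the pheromone receptor of MATa cells, had 1240 to 6470 counts, and *STE3*, the receptor of the other mating type, had 2 to 41. *YAP1* had 2 to 22 counts in the *yap1* mutant, 635 to 722 in WT with empty vector and 23285 to 25251 under overexpression. Replicate 2 of WT with empty vector stood apart for several of the 8 genes, and results that rest on it are given with and without it.

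Actin is a globular protein that assembles into filaments. In budding yeast, filaments form patches, which are branched networks at sites of endocytosis, and cables, which are bundles along which myosins carry cargo into the bud. *ACT1* encodes the single conventional actin of this yeast. Profilin (*PFY1*) feeds actin monomers to growing filaments and cofilin (*COF1*) severs filaments. The tropomyosins Tpm1 and Tpm2 coat cables, Abp1 and coronin (*CRN1*) bind patches, and fimbrin (*SAC6*) bundles filaments.

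The 8 genes lie on 7 chromosomes of the R64 assembly. Their symbols were matched to RefSeq, and all 8 were found. *ACT1* (YFL039C) lies at chrVI:53260-54696, *PFY1* (YOR122C) at chrXV:552298-552887, *COF1* (YLL050C) at chrXII:39804-40414 and *SAC6* (YDR129C) at chrIV:713340-715379, all on the minus strand. These 4 genes carry 1 intron each, of 309, 209, 179 and 111 bases, whereas 4.52% of 6002 protein-coding genes carry an intron in the coding sequence. *TPM1* (YNL079C, chrXIV:478566-479165, minus strand), *TPM2* (YIL138C, chrIX:89230-89715, minus strand), *ABP1* (YCR088W, chrIII:265068-266846, plus strand) and *CRN1* (YLR429W, chrXII:990777-992732, plus strand) have none. In each intron the first exon is short, with 10 coding bases in *ACT1*, 13 in *PFY1*, 14 in *COF1* and 21 in *SAC6*. The letters TACTAAC, the yeast branch point consensus, were searched on the gene's strand within each intron. They are given in capitals with the 10 bases on either side, because these 4 genes were low together in 1 library described later. That division was noticed after the values were seen. A match is a match of letters and not a mapped branch point. It ended 42, 71, 131 and 18 bases before the end of the intron in *ACT1*, *PFY1*, *COF1* and *SAC6*.
ACT1, chrVI:54410-54436, minus strand: aagtctcatgTACTAACatcgattgct
PFY1, chrXV:552727-552753, minus strand: cagagtaaatTACTAACtggaatatca
COF1, chrXII:40343-40369, minus strand: aactatcaatTACTAACtaattgacat
SAC6, chrIV:715256-715282, minus strand: acgtttcataTACTAACaaactcttct

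The RT-PCR of the study measured *ACT1* with the primer pair ACT1-RT-F1 and ACT1-RT-R1. Each primer matched the R64 genome at 1 place, and both places lie in exon 2, so the product does not span the intron. The product covers 166 bases at chrVI:53412-53577 and ends 152 bases before the end of the coding sequence, whereas QuantSeq reads start from the poly(A) tail. The primers and the product are shown because the ratios to *ACT1* given later rest on the same gene, with the primer sites of the product in capitals on the strand of the gene.
ACT1-RT-F1: tctgccggtattgaccaaacta
ACT1-RT-R1: tcatggaagatggagccaaagc
Product: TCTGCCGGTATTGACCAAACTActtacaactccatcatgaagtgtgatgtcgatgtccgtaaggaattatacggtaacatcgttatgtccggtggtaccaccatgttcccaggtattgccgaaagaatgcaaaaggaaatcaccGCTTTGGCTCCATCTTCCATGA

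The counting included multiple alignments, so near-identical copies could share reads. Each gene was searched from start to stop codon, introns included. The longest stretch found elsewhere in the genome was 17 to 22 bases for the 8 genes, also between the paralogs *TPM1* and *TPM2*. Sequence between the stop codon and the poly(A) tail was not searched. None of the 8 annotated genes overlaps another. The coding sequences of *ACT1*, *PFY1* and *SAC6* face a gene on the opposite strand, at distances of 287, 245 and 344 bases, and how reads in between were assigned is not given in the sources used here. In the 250 bases before the start codon, none of the 8 genes held the Yap1 response element TTACTAA or TGACTAA on either strand, which 9.45% of 6002 genes held. AGGGG, the stress response element, was found in *ACT1* and *COF1*, on the opposite strand, and 18.8% of all genes held it on either strand.

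The levels of the 8 genes over the 5 groups are given in CPM, the counts of a gene relative to the library size. Library sizes were adjusted by TMM over all 13 libraries, a scaling in which most genes are taken not to differ. *ACT1* had the CPM values 660 and 761 in untreated WT, 492 and 386 in caffeine-treated WT, 823, 290 and 722 in WT with empty vector, 646, 825 and 728 in the *yap1* mutant and 686, 685 and 664 under Yap1 overexpression. Both caffeine libraries were below both untreated libraries, and WT with empty vector replicate 2 was the lowest of the 13. By group means, *ACT1* was ordered from the *yap1* mutant (733 ± 89.6 CPM, SD, n = 3) through untreated WT (711 ± 71.8, n = 2), Yap1 overexpression (678 ± 12.2, n = 3) and WT with empty vector (612 ± 283, n = 3) to caffeine-treated WT (439 ± 75.1, n = 2), and the ranges of neighbours in this order overlapped. Over all 8 genes, 3 of 32 pairs of neighbouring groups did not overlap. These were *TPM1*, higher in untreated than in caffeine-treated WT, *ABP1*, higher under Yap1 overexpression than in caffeine-treated WT, and *SAC6*, higher in caffeine-treated WT than in the *yap1* mutant. For *ABP1*, the lowest overexpression library and the highest caffeine library both round to 132 CPM. The *ABP1* and *SAC6* pairs join the 2 experiments, which differ in plasmid status and in medium. The count of such pairs was not made over all genes.

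**Figure D1:**
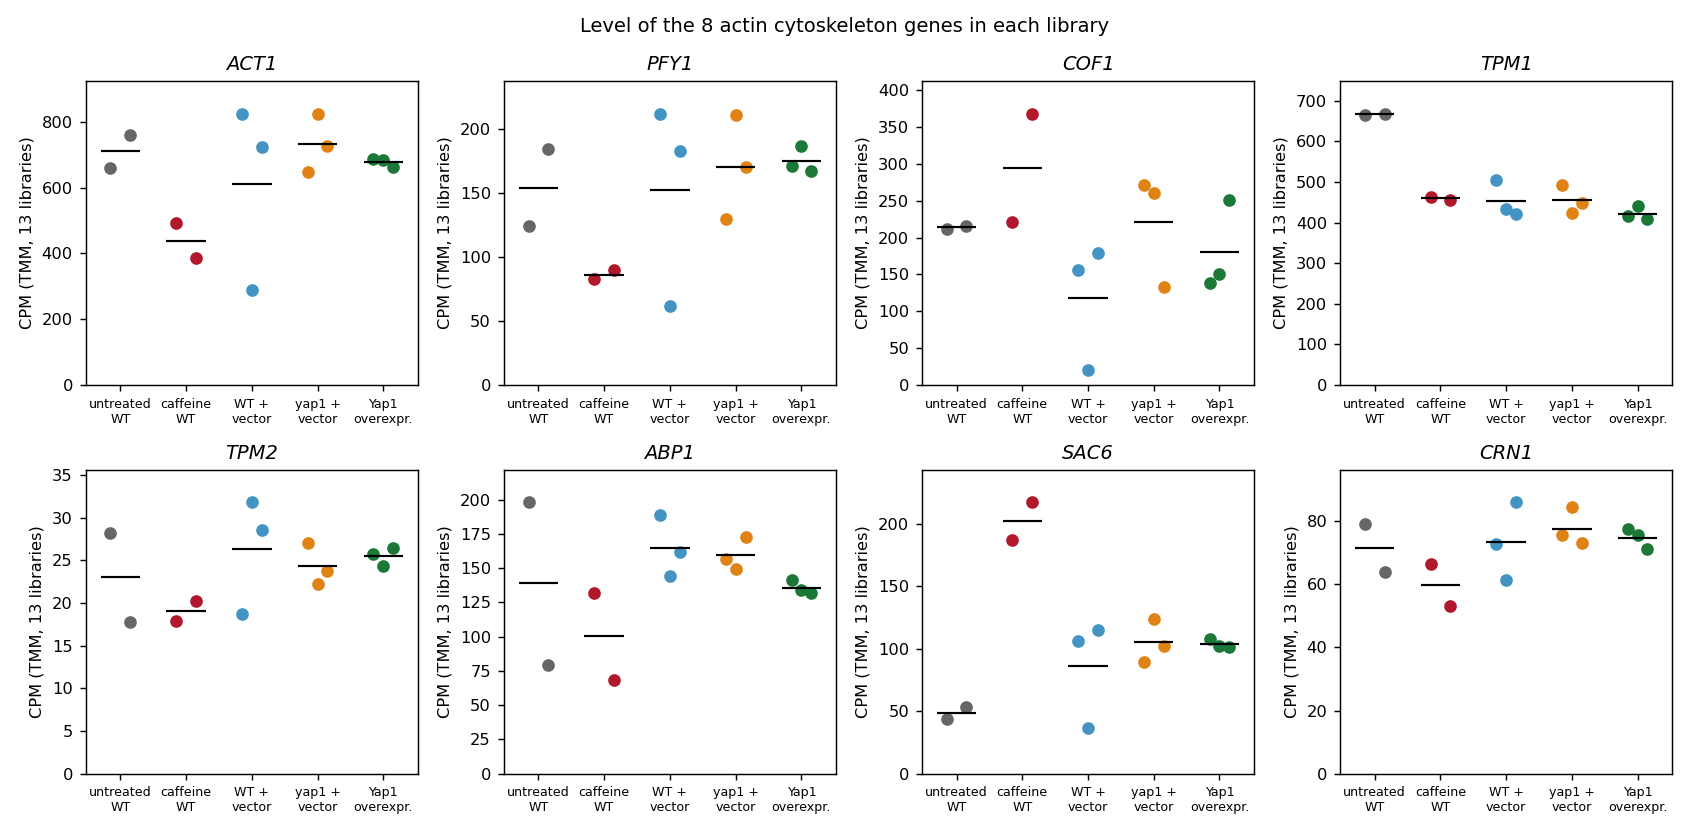
Level of each of the 8 genes in each library, in CPM with TMM normalization over 13 libraries on a linear axis from 0; points are libraries in replicate order, coloured by group, and lines are group means (2 or 3 libraries). *SAC6* sits at 187 and 217 CPM with caffeine and at 43.5 and 53.6 without. Replicate 2 of the empty-vector control is the low blue point of *ACT1*, *PFY1*, *COF1* and *SAC6*.

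Caffeine-treated WT was compared with untreated WT to ask which of the 8 genes respond to 1 h of caffeine. *SAC6* rose and *ACT1* and *PFY1* fell, that is, 1 gene was higher and 2 were lower by the quasi-likelihood test of edgeR at an adjusted p under 0.05 over all 6759 genes tested. In this comparison 22.2% of all genes were higher and 23.6% lower, 45.8% in either direction, so 3 of 8 is not above the share among all genes. All 8 passed the filter on low counts. The median log2 fold change was -0.45 over the 8 genes and 0.00 over all genes, with 6 of the 8 below 0.

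*SAC6*, the fimbrin gene, had 43.5 and 53.6 CPM in the untreated libraries and 187 and 217 CPM with caffeine. The 9 plasmid libraries had 36.6 to 124 CPM and lay below both caffeine libraries. All of them except replicate 2 of WT with empty vector (36.6) were at 89.7 CPM or more, above both untreated libraries. The plasmid and the medium cannot be told apart from the experiment in this comparison. The log2 fold change was 1.98 ± 0.25 (SE, n = 2 and 2), which is 3.95-fold, with an adjusted p of 0.00181 by edgeR, and 92.6% of all genes had a lower fold change. It passed the test with each of the 4 libraries left out in turn, at log2 fold changes of 1.89 to 2.19.

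*ACT1* fell by 0.77 ± 0.25 on the log2 scale (n = 2 and 2), to 0.586 of the untreated level, with an edgeR adjusted p of 0.0463. *PFY1*, the profilin gene, had 124 and 184 CPM in untreated WT and 82.7 and 89.5 with caffeine. It fell by 0.92 ± 0.27, with an edgeR adjusted p of 0.0347. Neither group of *ACT1* or *PFY1* overlapped the other, but 75.2% of all genes did not overlap in this comparison. Both calls were close to the threshold. *ACT1* was at -0.83 without untreated replicate 1, -0.62 without untreated replicate 2, -0.98 without caffeine replicate 1 and -0.59 without caffeine replicate 2, and passed the edgeR test in the third of these fits. It also failed the test without the filter on low counts (adjusted p = 0.052 by edgeR). *PFY1* was at -1.13, -0.55, -0.88 and -0.96 in the same order and passed in the first of these fits.

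The log2 fold changes with caffeine of the other 5 genes did not pass the test. *TPM1*, the major tropomyosin gene, had 665 and 668 CPM without and 463 and 456 CPM with caffeine, a log2 fold change of -0.61 ± 0.22 with an edgeR adjusted p of 0.0604. The libraries within each group differed little for this gene and the groups did not overlap, and DESeq2 called it lower (adjusted p = 0.0223). *TPM2*, its less expressed paralog, had 28.2 and 17.8 CPM against 17.9 and 20.2, and the groups overlapped. *COF1* had 212 and 216 CPM in untreated WT and 221 and 368 with caffeine, a log2 fold change of 0.38 ± 0.30 that was -0.01 without caffeine replicate 2. *ABP1* varied more within the groups than between them, with 198 and 79.6 CPM against 132 and 68.3, and was lower with caffeine at each replicate number. Its log2 fold change of -0.55 ± 0.52 became 0.30 without untreated replicate 1. *CRN1* had 79.0 and 64.0 CPM against 66.4 and 53.2, a log2 fold change of -0.34 ± 0.24.

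Scaling decided part of this picture. When libraries were scaled by total counts alone, the median of all genes moved by 0.38 on the log2 scale and 1 of the 8 genes, *SAC6*, was called. Over all genes this scaling called 2181 higher and 1086 lower, against 1501 and 1593 by TMM. *ACT1* was then at -0.41 (adjusted p = 0.239 by edgeR) and *PFY1* at -0.55 (adjusted p = 0.156), and *TPM2* and *CRN1* changed sign. The libraries hold no spike-in, so the values are relative to the other transcripts. A fall of a transcript cannot be told apart from a rise of the others, and the RNA per cell was not measured.

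**Figure D2:**
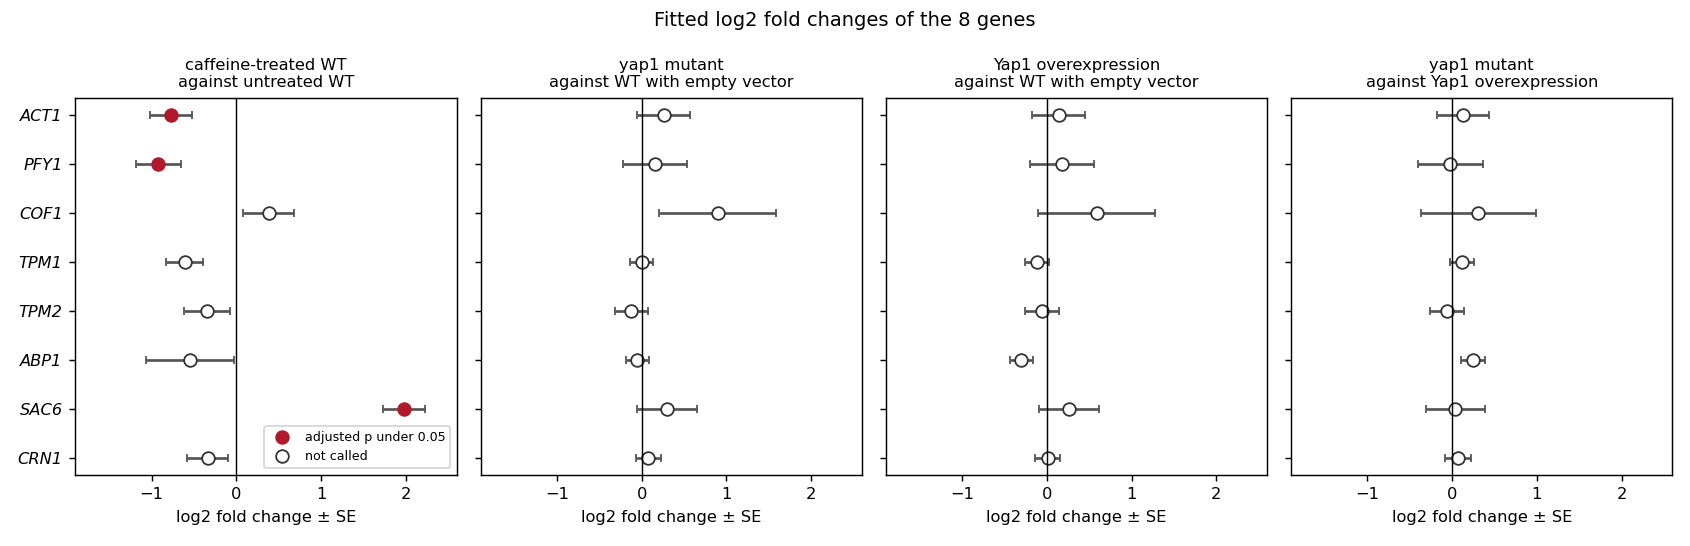
Log2 fold change with its standard error for each of the 8 genes in 4 comparisons, from edgeR; filled points passed an adjusted p under 0.05 over all genes and open points did not. *SAC6* at 1.98, *ACT1* at -0.77 and *PFY1* at -0.92 are filled in the caffeine comparison, and no point is filled in the 3 comparisons of plasmid strains.

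The genes around actin were described through 6 lists with 73 entries in all. The counts are those of the caffeine comparison by edgeR. Of the 7 subunits of the Arp2/3 complex, which nucleates branched filaments, 3 rose and none fell, with a list median of 0.64. *ARC18* was at a log2 fold change of 1.18 ± 0.27, *ARC19* at 0.87 ± 0.25 and *ARC35* at 0.76 ± 0.23. Without untreated replicate 1 or caffeine replicate 2, 0 subunits were called higher, and without either of the others, 1. Of 18 genes of the patch coat and of nucleation factors, 7 rose and none fell, with a median of 0.58. These were led by *YAP1801* (2.23 ± 0.23), a clathrin adaptor, *ENT2* (2.10 ± 0.27), an epsin, and *MYO3* (1.80 ± 0.40), a type I myosin of patches. Without caffeine replicate 1, 4 of the 18 were called higher. Of 12 genes for capping and turnover of filaments, 3 rose and 1 fell, with a median of 0.18. Twinfilin (*TWF1*) was at 1.40 ± 0.22, the cofilin partner *AIP1* at 0.93 ± 0.23, the kinase gene *ARK1* at 0.74 ± 0.23 and transgelin (*SCP1*) at -0.82 ± 0.21, and with any 1 of the 4 libraries left out, 1 to 2 were called higher and 0 lower. By library size scaling 5 of the Arp2/3 subunits, 8 of the coat genes and 6 of the turnover genes were called higher and 0 lower.

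Of 13 genes for formins, their partners, myosins and the ring, 9 fell and none rose, with a median of -0.90. The type II myosin *MYO1*, the motor of the cytokinetic ring, was at -2.68 ± 0.34, the formin *BNR1* at -2.01 ± 0.30 and the polarisome gene *SPA2* at -1.50 ± 0.48, and with any 1 of the 4 libraries left out, 4 to 6 of the 13 were called lower. By library size scaling 5 were called lower and 1 higher. The other formin gene, *BNI1*, was at 0.24 ± 0.44 and was not called. Of 13 tested genes for the CCT chaperonin and prefoldin, which fold actin and tubulin, 10 fell and none rose, with a median of -1.01. *YKE2* was at -1.76 ± 0.22, *CCT4* at -1.58 ± 0.23 and *CCT7* at -1.50 ± 0.20, and 5 to 6 were called lower with any 1 of the 4 libraries left out, as were 5 by library size scaling. In the same fits the calls over all genes went down from 1501 higher and 1593 lower to 1003 to 1228 higher and 986 to 1226 lower. *GIM5*, which is also listed for prefoldin, did not pass the filter on low counts.

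Of 9 tubulin and septin genes, the other cytoskeletons of the cell, 4 fell and 1 rose, with a median of -0.70. *TUB4* was at -2.07 ± 0.23, *TUB1* at -1.38 ± 0.30, *TUB2* at -1.14 ± 0.23 and the septin gene *SHS1* at 0.94 ± 0.22. Without untreated replicate 1, 1 of the 9 was called lower and 0 higher. All these calls are from edgeR and are to be read against the 22.2% and 23.6% of all genes called higher and lower.

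**Figure D3:**
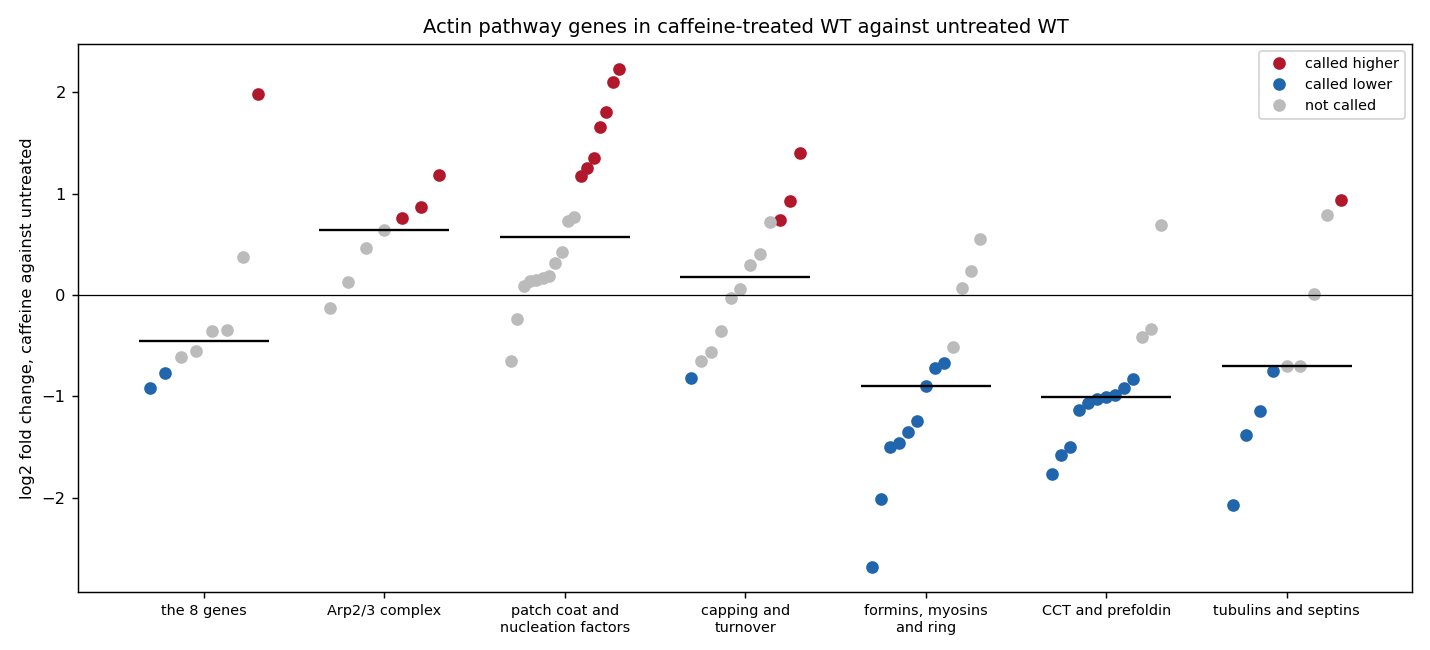
Log2 fold change of caffeine-treated against untreated WT (edgeR) for the 8 genes and the 6 lists around actin; each point is a gene, sorted within its list, red and blue points passed an adjusted p under 0.05 and black lines are medians. Called genes of the Arp2/3 and patch lists lie above 0, and those of the cable and ring list and of the CCT and prefoldin list lie below 0.

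The *yap1* mutant and Yap1 overexpression were each compared with WT with empty vector to ask whether Yap1 affects the 8 genes. In the *yap1* mutant, 0 of 8 genes passed the edgeR test, the lowest adjusted p being 0.669, where 0.0737% of all 6781 genes passed. At an unadjusted p under 0.05 by edgeR, 0 of 8 genes and 10.2% of all genes passed, and DESeq2 also called 0 of 8. The groups overlapped for all 8 genes, where 15.4% of all genes did not overlap. Under Yap1 overexpression, 0 of 8 genes passed, the lowest adjusted p by edgeR being 0.545, where 0.472% of all genes passed. Again 0 of 8 had an unadjusted p under 0.05 by edgeR, against 9.42% of all genes, and DESeq2 called 0 of 8. In the direct comparison of the *yap1* mutant with Yap1 overexpression, 0 of 8 genes passed by edgeR and by DESeq2, against 0.973% of all genes by edgeR, and 0 of 8 had an unadjusted p under 0.05, against 7.89%. WT with empty vector is no arm of this comparison, but its 3 libraries share the fit. Over all genes edgeR called 21 higher and 45 lower, 122 and 173 without its replicate 2, and 126 and 202 with only the 6 libraries compared, with 0 of the 8 genes called in each. The first and second of these comparisons share their 3 control libraries.

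The precision differed among the 8 genes. *TPM1* had 505, 434 and 421 CPM in WT with empty vector, 493, 424 and 447 in the *yap1* mutant and 416, 441 and 408 under Yap1 overexpression. Its log2 fold changes were 0.00 ± 0.14 and -0.12 ± 0.14 (n = 3 and 3) for the mutant and for overexpression. *CRN1* had 72.6, 61.3 and 85.9 CPM, then 75.5, 84.3 and 73.0, then 77.4, 75.6 and 71.0 in the same order of groups, with log2 fold changes of 0.08 ± 0.15 and 0.01 ± 0.15. *ABP1* had 189, 144 and 162 CPM in WT with empty vector, 157, 149 and 173 in the *yap1* mutant and 141, 134 and 132 under Yap1 overexpression. The overexpression libraries of *ABP1* lay below those of WT with empty vector, at a log2 fold change of -0.30 ± 0.14, and below those of the *yap1* mutant. Groups without overlap were found for 14.7% of all genes in the first of these comparisons and for 18.9% in the second. *TPM2* had 18.7, 31.8 and 28.5 CPM in WT with empty vector and between 22.2 and 27.0 CPM in the other 6 libraries with plasmid.

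The 4 genes with an intron had wider errors, and replicate 2 of WT with empty vector was low for each of them. *COF1* also varied within the *yap1* mutant (SD 76.6 CPM) and under overexpression (SD 61.5 CPM). *COF1* had 156, 20.4 and 179 CPM in WT with empty vector, 271, 260 and 133 in the *yap1* mutant and 139, 151 and 251 under Yap1 overexpression. Replicate 2 was at 20.4 CPM, from 391 counts, and the other 8 plasmid libraries were at 133 CPM or more. The log2 fold change of *COF1* was 0.90 ± 0.69 in the *yap1* mutant and 0.59 ± 0.69 under overexpression, and without replicate 2 it was 0.41 and 0.11. *PFY1* had 212, 62.1 and 183 CPM in WT with empty vector, 130, 211 and 170 in the mutant and 171, 187 and 167 under overexpression. *SAC6* had 106, 36.6 and 115 CPM, then 89.7, 124 and 102, then 108, 102 and 101. Without replicate 2, the log2 fold changes in the *yap1* mutant and under overexpression changed sign for *ACT1* (to -0.06 and -0.18), *PFY1* (to -0.20 and -0.17) and *SAC6* (to -0.05 and -0.09), and 0 of 8 genes were called.

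On the log2 scale, replicate 2 differed from the mean of the other 2 libraries of WT with empty vector by -2.97 for *COF1*, -1.65 for *PFY1*, -1.57 for *SAC6* and -1.41 for *ACT1*. Between 1.48% and 8.76% of 4849 genes were lower by this measure. The 4 genes without an intron differed by -0.36 (*CRN1*), -0.28 (*ABP1*), -0.09 (*TPM1*) and 0.45 (*TPM2*). This division was noticed after the values were seen. The median difference was -0.13 (quartiles -0.68 and 0.22) over 145 genes with an intron other than ribosomal protein genes. It was -0.02 (quartiles -0.52 and 0.28) over 4145 such genes without an intron, so the 2 sets overlapped widely. Over 131 ribosomal protein genes it was -0.96 (quartiles -1.64 and -0.38). With caffeine, where *SAC6* rose and *ACT1* and *PFY1* fell, the median log2 fold change was -0.16 over 179 genes with an intron other than ribosomal protein genes, and 0.02 over 5398 such genes without. Replicate 2 of WT with empty vector was also the 1 plasmid library whose gene list uses the newer names, as the 4 libraries without plasmid do. The part of its processing in these values was not tested.

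**Figure D4:**
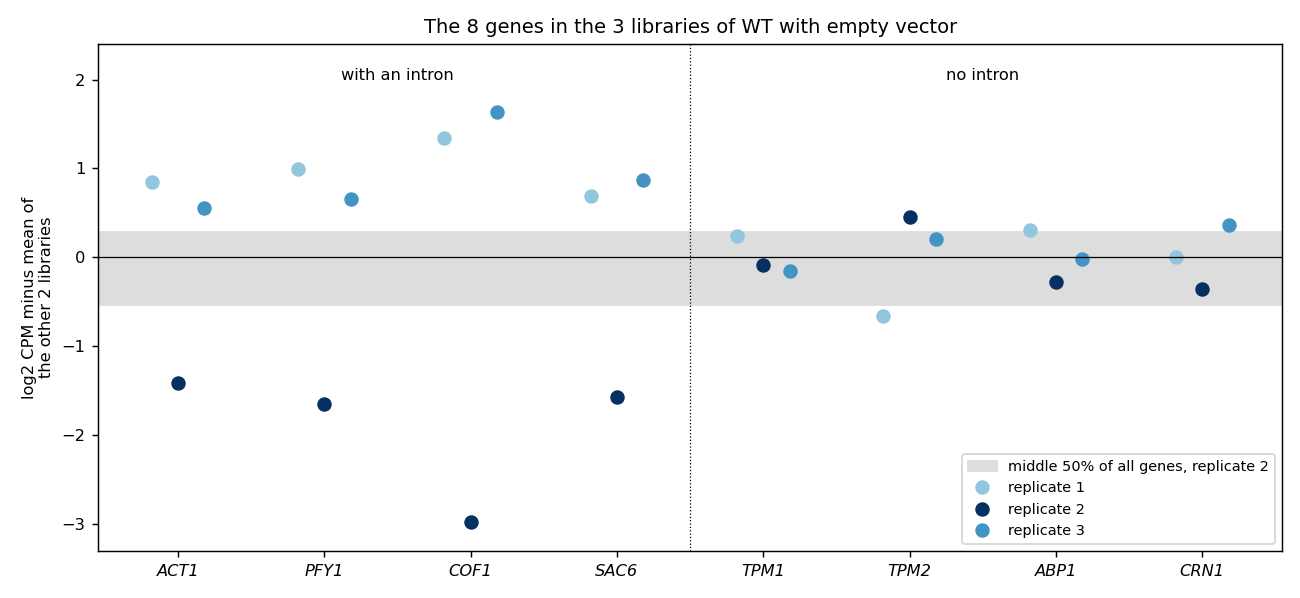
Log2 CPM of each of the 8 genes in a library of WT with empty vector minus the mean of the other 2 libraries; the grey band holds the values between the quartiles of 4849 genes in replicate 2. The dark points of replicate 2 lie at -1.41 to -2.97 for the 4 genes with an intron and at -0.36 to 0.45 for the 4 without.

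*ACT1* served as the loading control of the RT-PCR, so the counts of the RT-PCR targets were also set against it. Over the 13 libraries, log2 CPM of *ACT1* had an SD of 0.44, close to the median of 0.46 over 4849 genes (mean of 10 CPM or more), and 47.8% of these genes varied less. Over the 9 plasmid libraries alone its SD was 0.45 against a median of 0.25, and 85.4% of the genes varied less. Much of this spread rests on replicate 2 of WT with empty vector, at a log2 CPM of 8.18. Every other plasmid library lay between 9.34 and 9.69, and the SD without replicate 2 was not computed. *CRN1* (SD 0.19, 2.62% of genes lower) and *TPM1* (SD 0.24, 8.62% lower) varied least among the 8 genes, and *SAC6* (0.73) and *COF1* (1.00) most. Of 10 other genes in use as references, *TAF10* (SD 0.28), *TFC1* (0.28) and *TAF11* (0.30) varied less than *ACT1*. *ALG9* had an SD of 0.44, *IPP1* of 0.48, *TDH3* of 0.49, *TUB1* of 0.59, *PDA1* of 0.62, *UBC6* of 0.88 and *PGK1* of 1.22. With caffeine, 4 of these 10 genes fell and 1 rose by edgeR. *IPP1* was at a log2 fold change of -1.60 ± 0.24, *TUB1* at -1.38 ± 0.30, *PDA1* at -1.28 ± 0.21 and *TDH3* at -1.23 ± 0.20, and *UBC6* was at 0.91 ± 0.20. The other 5, *ALG9*, *TAF10*, *TFC1*, *PGK1* and *TAF11*, were between -0.39 and 0.36 and were not called.

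Since *ACT1* was lower with caffeine, ratios to *ACT1* were higher than fold changes by TMM. For *PDR5*, an ABC transporter gene, the log2 ratio of its counts to those of *ACT1* was -3.73 and -4.36 in untreated WT and -0.51 and -0.70 with caffeine. The ratio rose 10.9-fold, against 6.60-fold by TMM. For *SNQ2*, another ABC transporter gene, the difference was 5.30-fold by *ACT1* and 3.23-fold by TMM, and for *YAP1* it was 3.09-fold and 1.88-fold. *FLR1*, the gene of the fluconazole transporter, was 2.02-fold higher relative to *ACT1*, with log2 ratios of -5.21 and -5.14 without and -4.38 and -3.93 with caffeine, and 1.24-fold higher by TMM. For *SOD1* the values were 1.91-fold and 1.17-fold. The transporter genes *YCF1* and *ATR1* were at 0.970 and 0.950 of the untreated ratio to *ACT1* and both at 0.599 by TMM. With 2 libraries against 2, the exact permutation test (two-sided) cannot give a p below 0.333, which *PDR5*, *SNQ2*, *YAP1*, *FLR1* and *SOD1* reached (n = 2 and 2).

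In the plasmid strains, *FLR1*/*ACT1* under Yap1 overexpression was 17.6-fold higher than in WT with empty vector, against 21.0-fold by TMM, and *ATR1*/*ACT1* 4.10-fold against 4.85-fold. In log2 units *FLR1*/*ACT1* was -4.92, -3.90 and -5.23 in WT with empty vector, -0.65, -0.48 and -0.52 under overexpression and -5.30, -5.61 and -5.31 in the *yap1* mutant. Replicate 2 of WT with empty vector was the highest of its group for all 7 targets, and without it the difference for *FLR1* under overexpression was 4.53 instead of 4.13 on the log2 scale. In the *yap1* mutant, *FLR1*, *PDR5* and *SNQ2* relative to *ACT1* lay below WT with empty vector in all 3 libraries, at log2 differences of -0.72, -0.80 and -0.51, and by TMM the differences were -0.32, -0.40 and -0.11. Without replicate 2 of WT with empty vector the differences relative to *ACT1* were -0.33, -0.50 and -0.22. The exact permutation p was 0.1 for *FLR1* in both comparisons, for *ATR1* under overexpression and for *PDR5* and *SNQ2* in the mutant, the smallest that 3 libraries against 3 allow (two-sided), and 0.3 after Benjamini-Hochberg adjustment over the 21 ratios.

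**Figure D5:**
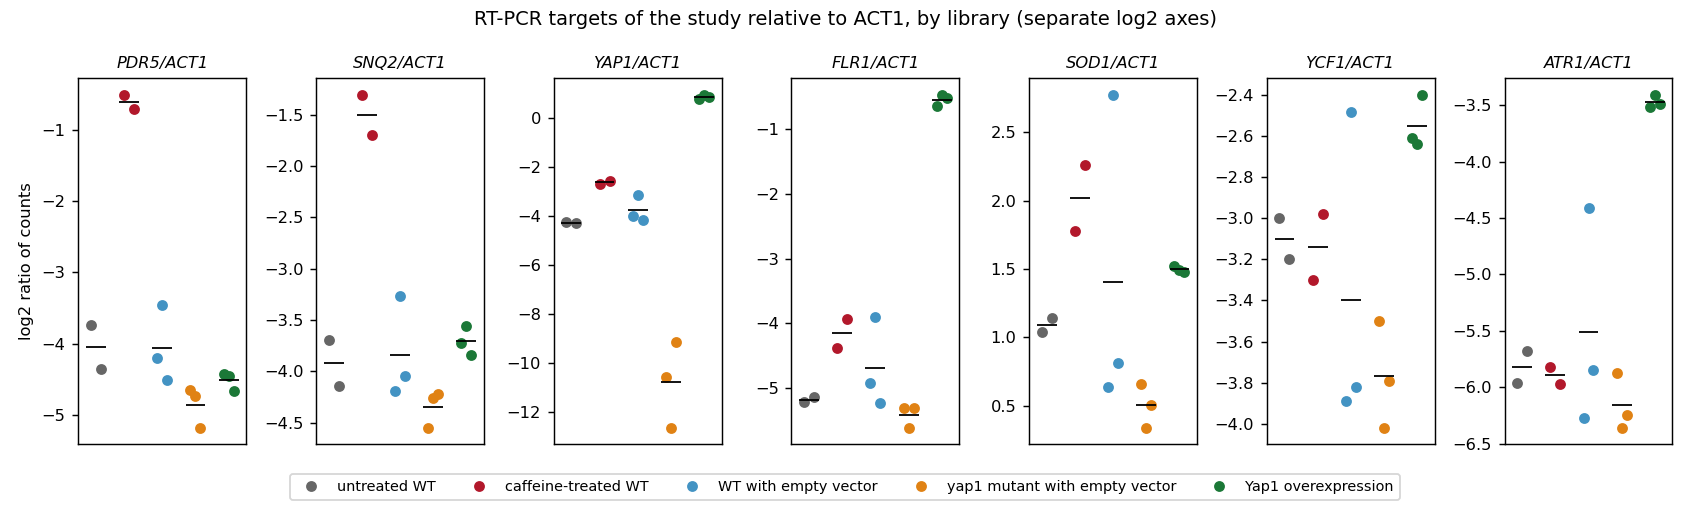
Log2 ratio of the counts of 7 RT-PCR targets to the counts of *ACT1* in each library, with a separate log2 axis for each target; points are libraries, coloured by group, and lines are group means. *PDR5*/*ACT1* is at -0.51 and -0.70 with caffeine and at -3.73 and -4.36 without, and *FLR1*/*ACT1* is at -0.65 to -0.48 under Yap1 overexpression.

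The genes whose log2 CPM followed *ACT1* most closely over the 13 libraries, among 4848 others, were *TIF2*, *GAS1*, *OST1*, *VPH1* and *RPS30A*, each with a Pearson r of 0.96. This is a description, since the points share libraries and the groups set part of the spread. Without the 2 libraries farthest from the median of *ACT1*, replicate 2 of WT with empty vector and caffeine replicate 2, their r was 0.81 to 0.90. *PFY1* ranked 10 with r = 0.94, and 0.94 without these 2 libraries, and it followed *ACT1* more closely than the other 6 genes did. *SAC6* had r = 0.09 over the 13 libraries and r = 0.98 over the 9 plasmid libraries. Replicate 2 of WT with empty vector was the lowest plasmid library for both *SAC6* and *ACT1*, and r over the plasmid libraries without it was not computed. Over all libraries of both experiments except replicate 2 of WT with empty vector, the r of *SAC6* was -0.58. This value is to be set against 0.09 and not against 0.98. Over the 13 libraries, the other genes had r of 0.72 (*CRN1*), 0.51 (*COF1*), 0.35 (*ABP1*), 0.18 (*TPM1*) and -0.23 (*TPM2*). Without replicate 2 of WT with empty vector, *COF1* had r = -0.57 and *TPM2* r = 0.19, both of the other sign, and *CRN1*, *ABP1* and *TPM1* had r of 0.73, 0.57 and 0.10.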

How the data were processed

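The authors aligned single-end QuantSeq reads with Bowtie2 and counted unique and multiple alignments per gene with bedtools. The submitters' processing notes name the build sacCer3, versions are not given in the sources used here, and the deposited values are raw counts per gene, 1 list per library. The lists follow 2 naming versions, 6957 rows had the same name and 169 renamed rows were joined by position. A further table with mouse genes (1 file) was not used.

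Fold changes came from edgeR 4.0.16 under R 4.3.3 (filterByExpr, TMM, robust quasi-likelihood test, Benjamini-Hochberg adjustment over all genes at 0.05). The 9 plasmid libraries shared 1 fit and the 4 others were fitted apart. SE is |log2 fold change|/√F. CPM used TMM over 13 libraries, log2 CPM added 1 CPM, and ratios to *ACT1* added 0.5 counts. Replicate spread, with a biological coefficient of variation of 25.1% without plasmid and 25.8% with it, exceeded counting error. The test was checked on simulated data with 200 changed genes, with rises and falls in equal number. Many more genes were called with caffeine, so this check does not cover the scaling in that comparison.

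The 8 genes, the lists and the tests were chosen with earlier results of these data known. The text names the 8 genes, the reference genes and RT-PCR targets, up to 3 called genes per list and direction with the largest change, and the 5 genes most like *ACT1*. A further list is not reported here. *BNI1*, *GIM5* and the strain markers were named outside this rule. Alternatives were DESeq2 1.42.0, scaling by library size, upper-quartile scaling, TMM without rRNA rows, no filter, a replicate block, voom with sample quality weights (limma 3.58.1), fits of only the libraries compared, another reference than *ACT1*, and each library left out. Positions and sequences are from RefSeq R64 and the primer list of the study.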

Additional observations from a re-analysis of the deposited data

How the results depend on the processing

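With caffeine, 3 of the 8 genes were called, and 4 by DESeq2. Scaling by library size gave 1 called gene in this comparison, and leaving out 1 library gave 1 to 2. For the *yap1* mutant and for Yap1 overexpression against WT with empty vector, 0 genes were called, and library size scaling called 1 gene each, *COF1* (log2 fold changes of 1.43 and 1.22), where over all genes it called 285 higher and 2 lower in the mutant and 266 and 1 under overexpression. In the fits by library size the median of all genes moved by 0.38 with caffeine, by 0.37 in the *yap1* mutant and by 0.45 under overexpression. Scaling by library size gave 8 instead of 3 pairs of neighbouring groups without overlap, a count made for the 8 genes only. Over all genes, edgeR called 4 higher and 1 lower in the *yap1* mutant, DESeq2 85 and 40, and edgeR without replicate 2 of the control 77 and 23. Under overexpression these counts were 30 and 2, 85 and 9, and 100 and 12. The replicate numbers were not taken as pairs in the main fits. Same-numbered plasmid libraries had correlations of -0.47 to 0.27. In the caffeine experiment, which holds 2 pairs, same-numbered libraries had 0.40 and different-numbered ones -0.40. With 2 libraries per group these values mirror each other. With a replicate block, 3 of the 8 genes were called with caffeine and 0 in the other comparisons. Over all genes the block raised the calls with caffeine from 1501 higher and 1593 lower to 1903 and 1966. In the plasmid comparisons it lowered them.

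The log2 fold changes that changed sign belong to genes that were not called, and *SAC6*, *ACT1* and *PFY1* kept their sign with caffeine under the 7 alternatives and the 4 omissions. By library size, *TPM2* and *CRN1* were at 0.05 and 0.04 with caffeine, *TPM2* and *ABP1* at 0.18 and 0.35 in the *yap1* mutant, *TPM1*, *TPM2* and *ABP1* at 0.34, 0.32 and 0.19 under overexpression, and *SAC6* and *CRN1* at -0.05 and -0.01 between the mutant and overexpression. *TPM1* in the *yap1* mutant was at -0.01 by upper quartile, by TMM without rRNA rows and by voom. With voom and quality weights, *PFY1* and *CRN1* in the mutant were at -0.04 and -0.02, and *ACT1*, *PFY1*, *TPM2*, *SAC6* and *CRN1* under overexpression at -0.08, -0.06, 0.01, -0.01 and -0.11. *PFY1* between the mutant and overexpression was at 0.02. *YCF1* in the mutant was at 0.02 by TMM in place of *ACT1*.

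With 1 library left out at a time, the log2 fold changes with caffeine ranged from -0.01 to 0.69 (*COF1*), -0.59 to 0.07 (*TPM2*) and -1.13 to 0.30 (*ABP1*). In the *yap1* mutant they ranged from -0.06 to 0.53 (*ACT1*), -0.20 to 0.47 (*PFY1*), -0.06 to 0.09 (*TPM1*), -0.31 to 0.05 (*TPM2*), -0.12 to 0.07 (*ABP1*), -0.05 to 0.58 (*SAC6*) and -0.02 to 0.22 (*CRN1*). Under overexpression they ranged from -0.18 to 0.43 (*ACT1*), -0.17 to 0.52 (*PFY1*), -0.23 to 0.12 (*TPM2*), -0.09 to 0.54 (*SAC6*) and -0.08 to 0.15 (*CRN1*). Between the mutant and overexpression they ranged from -0.21 to 0.14 (*PFY1*), -0.11 to 0.14 (*SAC6*) and 0.00 to 0.12 (*CRN1*). Log2 ratios to *ACT1* ranged from -0.20 to 0.11 (*YCF1*) and -0.21 to 0.06 (*ATR1*) with caffeine, from -0.62 to 0.09 (*YCF1*) in the mutant, and from -0.30 to 0.77 (*SOD1*) and -0.05 to 0.42 (*SNQ2*) under overexpression. In the caffeine comparison such a fit leaves 1 library in a group, which is taken to vary like the others. The cause of these changes was not tested.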
